A study of Homo sapiens with 6 samples.

Results

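The nuclear genes for the subunits of the mitochondrial respiratory chain were followed in mitotic fibroblasts with and without oncogenic H-Ras. They were found by name in the deposited table of 63129 genes: the NDUF genes of complex I, SDHA to SDHD of complex II, the UQCR genes and CYC1 of complex III, the COX4 to COX8 genes of complex IV, and the ATP5 genes of the ATP synthase. The names matched 115 entries, of which 11 were annotated pseudogenes and 19 had no match in the annotation and were listed at 0 in every library. The other 85 were protein-coding entries for 81 gene symbols, with UQCR11, NDUFA7, NDUFB8 and SDHD each listed a second time as a longer gene that overlaps the first. Of these 85 entries, 79 had a mean of at least 1 FPKM (the fragments assigned to a gene relative to its transcript length and to all mapped fragments) over the 6 libraries and were tested: 39 of 39 for complex I, 4 of 5 for complex II, 10 of 10 for complex III, 10 of 14 for complex IV and 16 of 17 for the ATP synthase.

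All 6 libraries came from ERRAS cells, which are IMR90 human fetal lung fibroblasts that carry H-RasV12 fused to the ligand-binding domain of the estrogen receptor, delivered with a retrovirus. The 3 uninduced libraries came from these cells without tamoxifen, and the 3 induced libraries from cells kept for 4 days with tamoxifen (100 nM), which switches the fused H-Ras on. This dose is that of the sample labels, and the study's methods state a different one, in mass per volume of 4-hydroxytamoxifen. Both groups therefore carried the construct, grew in 20% serum at 3% oxygen, and were arrested in mitosis with 1 µM DME, which blocks the motor protein Eg5 and leaves the spindle monopolar, before the loosely attached mitotic cells were collected with a mitotic index above 90%. The study describes the experiment as repeated independently, but the column names give only a group and a number, so which induced and uninduced libraries came from one repeat is not known here. A p-value measures the spread between these libraries.

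The respiratory chain passes electrons from nutrients to oxygen along carriers at the inner mitochondrial membrane. Complex I takes electrons from NADH and complex II from succinate, ubiquinone carries them to complex III, cytochrome c carries them on to complex IV, and complex IV reduces oxygen to water. Complexes I, III and IV pump protons as they do so, complex II does not, and the ATP synthase lets the protons flow back through its membrane rotor to make ATP. Most subunits are encoded in the nucleus and imported, while a small core set of complexes I, III, IV and the ATP synthase is encoded in mitochondrial DNA. Oncogenic Ras and senescence are both known for altered mitochondrial metabolism in fibroblasts.

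The libraries were first checked against their labels. HRAS, whose reads can come from the cell's own gene or from the construct, stood at 1174, 1176 and 1140.3 FPKM in the uninduced libraries and at 1439, 1847 and 1473 in the induced libraries (log2 fold change 0.44, limma adjusted p = 0.0431). HRAS was called in 4 of its 13 alternatives, with limma adjusted p of 0.0193 to 0.166, and was higher in induced cells in all of them. The fibroblast genes VIM and THY1 were expressed in every library, but the summed FPKM of 8 fibroblast markers was 4760 to 5347 in uninduced and 3164 to 4387 in induced cells, and 2 of the 8 (COL1A2 and THY1) were called lower (25%, against 5.67% of all genes) and 0 higher. Of 10 mitotic genes, 5 were called lower (50%) and 0 higher, with sums of 1883 to 1950 against 1542 to 1688 FPKM. The summed 5 leukocyte markers stayed at or below 0.288 FPKM, with CD3E and ITGAM listed at 0, and PECAM1 of the 5 endothelial markers was listed at 0. The endothelial sum was 14.5 to 16.5 in uninduced and 4.81 to 5.41 in induced cells, nearly all of it TEK, which was called lower (log2 fold change -1.45, limma adjusted p = 0.00126). CDH5, KDR and VWF were each below 0.1 FPKM in every library. The 5 epithelial markers summed to 61.5 to 65.4 and 71.0 to 74.5 FPKM. Most of this was KRT18 (45.1 to 51.8 and 56.7 to 58.7) and KRT8 (10.4 to 13.2 and 8.87 to 13.3), neither of them called. CDH1 stayed at or below 0.224 FPKM, and EPCAM had means of 1.24 in uninduced and 0.288 in induced cells. The part of these marker differences in the results on the respiratory chain was not tested.

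Subunit transcripts were abundant. The median tested subunit had a mean of 91.4 FPKM, against 13.0 FPKM for the median of all 13993 tested genes, and 91.0% of tested genes lay below the median subunit. The tested subunits spanned 2.60 to 358 FPKM, with ATP5B at the top and the second NDUFB8 entry at the bottom.

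Every subunit transcript that passed the test was higher in induced cells, and all 5 complexes held at least 1 of them. Complexes III and IV held only 1 each, a share of their tested entries that was not above the share among all genes. Of the 79 tested subunits, 18 were called higher in induced cells and 0 lower, where a call means that limma on log2(FPKM + 1) gave an adjusted p no higher than 0.05, by Benjamini-Hochberg over all 13993 genes. Among all tested genes 11.0% were called higher and 5.67% lower, against 22.8% and 0 of the subunits. The median log2 fold change, which throughout is induced over uninduced on the log2(FPKM + 1) scale, was 0.23 for the subunits and 0.10 for all genes. It was above 0 for 75 of the 79 subunits and for 62.7% of all genes. In 46 subunits, or 58.2%, all 3 induced libraries lay above all 3 uninduced libraries, which held for 27.1% of all genes. In the other 33 the groups overlapped, and in none did all induced libraries lie below. At an unadjusted limma p under 0.05, 40 subunits (50.6%) were higher and 0 lower, against 22.9% and 10.7% of all genes. These are bulk libraries, so a change in how many cells express a gene and a change in the RNA of each cell cannot be told apart.

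**Figure D1:**
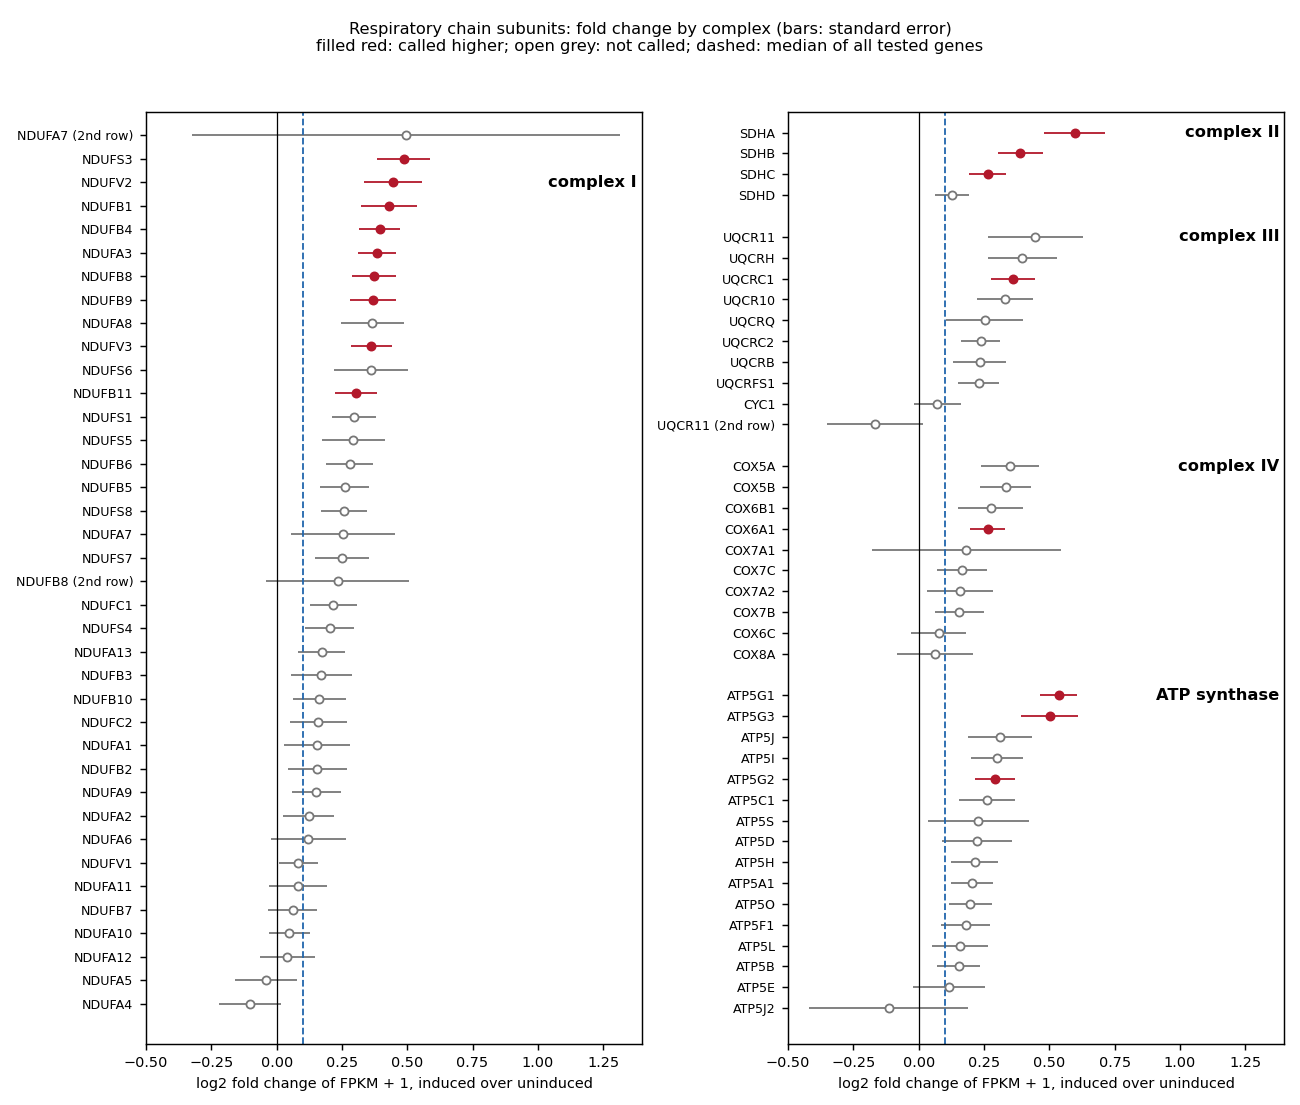
Log2 fold change (induced over uninduced, FPKM + 1) of 78 of the 79 tested entries, by complex, with its standard error as a bar; filled red points are 17 of the 18 called higher, open grey points are not called, and the dashed line is the median of all tested genes (0.10). Points lie to the right of 0 for 74 of the 78 entries, with SDHA (0.60) and ATP5G1 (0.54) the highest of those called.

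The size of the count changed with the scaling and when a library was left out. With each library scaled to a common upper quartile, 4 of the 79 (NDUFB4, SDHA, ATP5G1 and ATP5G3) were called higher, or 5.06%, which was below the 6.58% of all genes. With quantile normalization 14 were called, or 17.7%, against 7.46% of all genes. Under these scalings the median of all genes was 0.005 and 0.01, that of the subunits 0.14 and 0.16, and the calls over all genes split 921 higher to 1101 lower and 1044 higher to 1109 lower, in place of 1543 to 793. Without uninduced library 1, 2 or 3 there were 3, 2 and 9 subunits called higher, or 3.80%, 2.53% and 11.4% of the 79, against 5.25%, 4.51% and 8.65% of all genes. Without induced library 1, 2 or 3 there were 5, 2 and 1, or 6.33%, 2.53% and 1.27%, against 5.02%, 7.01% and 4.39% of all genes. The share of subunits called was therefore above that of all genes with the FPKM as deposited in all 6 libraries, below it after upper-quartile scaling, and below it in the fits without uninduced library 1, uninduced library 2, induced library 2 or induced library 3. When the spread was moderated without a trend on the mean level, 8 subunits were called, or 10.1%, against 9.29% of all genes. ATP5G1 was called in all 13 alternatives, and no subunit was called lower in any of them.

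The libraries of a group did not sit evenly. Over the 76 tested genes counted once, uninduced library 3 was the lowest of its group for 57, with a median of 0.873 of the mean of the other uninduced libraries. Induced library 2 was the highest of its group for 64, with a median ratio of 1.13. The median log2 fold change of the subunits was 0.19 without uninduced library 3 and 0.17 without induced library 2, and their excess over the median of all genes was 0.10 and 0.06, against 0.13 with all libraries. By transcript length, uninduced library 3 was the lowest for 36 of 38 subunits with a canonical transcript of at most 804 bases (median ratio 0.857) and for 20 of 37 longer ones (0.937). The median log2 fold change was 0.23 in both classes. Called higher were 8 of the 38 and 10 of the 37, where 11.0% of all tested genes were called higher. Induced library 2 also had the lowest relative depth, 0.848 of uninduced library 1, and uninduced library 3 the highest, 1.17. Their part in the result was not tested beyond leaving each library out.

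**Figure D2:**
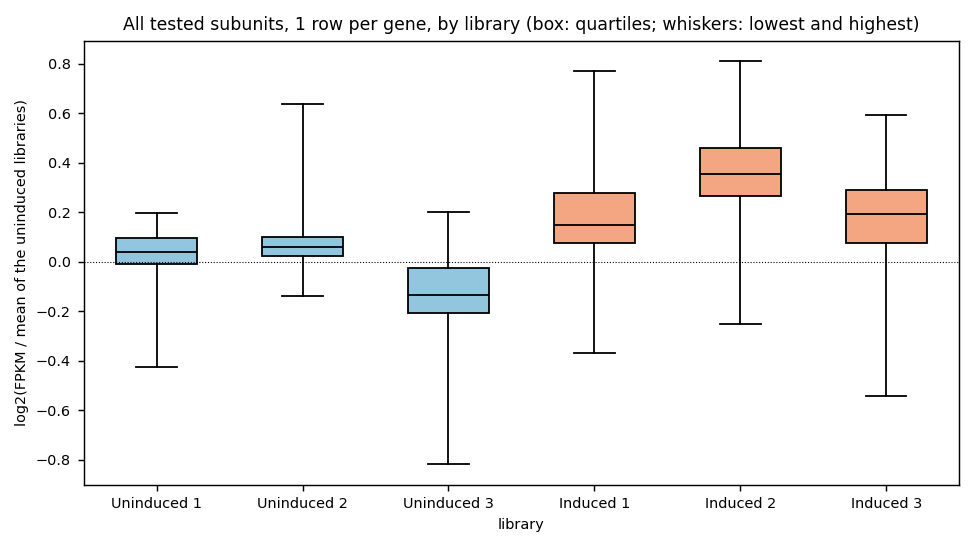
Log2 ratio of each tested subunit's FPKM to its uninduced mean in each library, 76 genes counted once; boxes show quartiles, whiskers the lowest and highest gene. Uninduced 3 lies below the other uninduced libraries and Induced 2 above the other induced libraries for most subunits.

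Promoters of the called subunits are shown because nuclear respiratory genes are known for sites of NRF1 and of ETS factors such as GABP. The RefSeq promoter table (GRCh38.p14, 250 bases before to 50 after each start) held 72 windows for 60 of the 76 tested genes. On both strands these were searched for GCGCATGC (the core of an NRF1 site), CCGGAAG (an ETS core), AAGATGGC (a YY1 core) and TATAAA. The NRF1 core was in 20.8% of the subunit windows and in 3.05% of all 35116 windows, the ETS core in 27.8% and 10.3%, the YY1 core in 18.1% and 2.89%, and TATAAA in 8.33% and 11.5%. At least one of the first 3 cores was in the windows of 35 genes, and 6 genes had both an NRF1 and an ETS core. Of all tested genes 11.0% were called higher, which is the share to set beside the calls that follow. The median log2 fold change was 0.30 for the 14 genes with an NRF1 core, 4 of them called, and 0.22 for the 46 without, 10 of them called. For the ETS core it was 0.26 in 19 genes, 3 called, and 0.24 in 41, 11 called. For the YY1 core it was 0.25 in 12 genes, 4 called, and 0.24 in 48, 10 called. For TATAAA it was 0.20 in 6 genes, 0 called, and 0.25 in 54, 14 called. No test of these differences was made. The stretches below are those of the 5 called genes that hold an NRF1 or ETS core, read 5′ to 3′ on the strand of the gene with the NRF1 and ETS cores of either strand in capitals, and placed on GRCh37 by an exact match. The SDHB (chr1:17380624-17380752, minus strand) and NDUFB4 (chr3:120314999-120315058, plus strand) stretches lie upstream of the annotated genes. The NDUFS3 stretch (chr11:47600499-47600574, plus strand) lies inside the span annotated for NDUFS3 and begins in the first exon of KBTBD4 on the opposite strand, and the ATP5G2 stretch (chr12:54069875-54069932, minus strand) lies inside the span annotated for ATP5G2, in no exon. The COX6A1 stretch (chr12:120875673-120875915, plus strand) reaches the first annotated bases of COX6A1.
SDHB: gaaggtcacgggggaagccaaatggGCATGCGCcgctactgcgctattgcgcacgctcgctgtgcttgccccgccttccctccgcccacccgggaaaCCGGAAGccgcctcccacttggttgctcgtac
NDUFB4: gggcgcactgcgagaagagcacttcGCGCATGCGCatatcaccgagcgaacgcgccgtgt
NDUFS3: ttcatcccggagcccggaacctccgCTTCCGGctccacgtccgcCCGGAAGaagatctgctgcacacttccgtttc
ATP5G2: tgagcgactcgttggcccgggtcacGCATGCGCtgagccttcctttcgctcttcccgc
COX6A1: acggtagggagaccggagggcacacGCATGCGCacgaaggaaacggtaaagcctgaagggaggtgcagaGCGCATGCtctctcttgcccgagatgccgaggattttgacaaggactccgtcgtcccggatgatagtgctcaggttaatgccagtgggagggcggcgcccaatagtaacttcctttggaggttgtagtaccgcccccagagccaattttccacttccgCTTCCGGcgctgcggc
A match says only that these letters are in the window.

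Complex I had 10 of its 39 entries called higher, or 25.6% against 11.0% of all genes, with a median log2 fold change of 0.25, and 21 of 39, or 53.8% against 27.1% of all genes, had groups that did not overlap. Its core subunits bind the flavin and the iron-sulfur clusters that carry electrons or help to form the quinone site, and the other subunits assemble around them. Of the core subunits, NDUFS3 and NDUFV2 are described first. NDUFS3 stood at 39.1, 44.6 and 42.9 FPKM in the uninduced libraries and at 54.6, 66.7 and 57.7 in the induced libraries. NDUFV2, an iron-sulfur subunit of the NADH-oxidizing module, stood at 101, 99.1 and 81.6 FPKM and at 118, 139.7 and 126. In both genes the lowest induced library was above the highest uninduced library. Their log2 fold changes were 0.49 ± 0.10 (SE, limma adjusted p = 0.0233) for NDUFS3 and 0.45 ± 0.11 (limma adjusted p = 0.0398) for NDUFV2. NDUFV1, which holds the flavin that accepts electrons from NADH, was not called (log2 fold change 0.08), and its groups overlapped, at 58.9, 62.04 and 60.6 FPKM against 60.8, 68.3 and 63.6.

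The NDUFB subunits of the membrane arm, none of which is a core subunit, supplied 5 of the calls in complex I. These came from 11 tested genes (45.5%, against 11.0% of all genes), a grouping made after the values were seen. The other 6 had log2 fold changes of 0.06 to 0.28 and limma adjusted p of 0.0819 or more, and in 4 of them the groups overlapped. NDUFB4 stood at 101, 104 and 89.8 FPKM in uninduced and at 128, 132 and 127 in induced cells, a log2 fold change of 0.39 ± 0.08 (SE, limma adjusted p = 0.0215). NDUFB1 moved from 99.2 ± 9.61 to 134 ± 13.4 FPKM (SD, 3 libraries each), NDUFB8 from 96.5 ± 6.51 to 125.1 ± 7.60, NDUFB9 from 107 ± 3.26 to 139 ± 12.7 and NDUFB11 from 41.6 ± 1.75 to 51.6 ± 3.22. Their log2 fold changes were 0.43, 0.37, 0.37 and 0.30, and in none did the groups overlap. NDUFA3 of the membrane arm stood at 53.4, 49.0 and 52.8 FPKM in uninduced and at 65.2, 69.9 and 68.3 in induced cells (0.38 ± 0.07, limma adjusted p = 0.0180). NDUFV3, an accessory subunit at the NADH-oxidizing tip, stood at 22.7, 22.3 and 20.4 and at 28.7, 28.8 and 27.3 FPKM (0.36 ± 0.08, limma adjusted p = 0.0267). Both also had groups that did not overlap.

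Other complex I genes did not pass the test. NDUFS5, the most abundant of them, stood at 301, 314 and 256 FPKM in uninduced and at 329, 407 and 333 in induced cells, without overlap but short of the threshold (log2 fold change 0.29, limma adjusted p = 0.143). NDUFA4, which was first assigned to complex I and is now known as a complex IV subunit, stood at 60.4, 57.9 and 45.3 FPKM and at 49.2, 49.6 and 52.4. Its groups overlapped, with a log2 fold change of -0.10. NDUFA5, a subunit of the matrix arm, was the other complex I gene below 0, at -0.04. The second entries for NDUFA7 and NDUFB8 had means of 3.73 and 2.60 FPKM and wide errors (0.50 ± 0.82 and 0.23 ± 0.27, SE). NDUFS3 lost its call without uninduced library 1, uninduced library 2 or induced library 3 (adjusted p up to 0.0746 over its 13 alternatives). Fits with a library left out called 612 to 1208 of all genes higher, against 1543 with all libraries. The other complex I calls named above were also lost in some of these fits. NDUFB1, NDUFB8, NDUFB11 and NDUFV2 lost theirs without each library in turn, NDUFB4 and NDUFV3 without any other than uninduced library 3, NDUFB9 without any other than induced library 1, and NDUFA3 without uninduced library 2, induced library 2 or induced library 3. In these fits the highest limma adjusted p was 0.131, for NDUFB11. The library kit does not mark strand, and 5 called genes (NDUFA3, NDUFB8, NDUFB9, NDUFB11 and NDUFS3) share exon bases with an expressed gene on the opposite strand, as NDUFB9 does with TATDN1, at 23.5 to 26.9 FPKM in uninduced and 33.7 to 39.1 in induced cells. NDUFS3 also shares exon bases with PTPMT1 on its own strand, at 23.4 to 32.3 and 25.4 to 28.0 FPKM, and the part of shared reads in these calls was not tested.

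Complex II, which is also the succinate dehydrogenase of the TCA cycle, was called in 3 of its 4 tested genes, against 11.0% of all genes, and in all 4 the induced libraries lay above the uninduced ones, against 27.1% of all genes. SDHA (chr5:218418-257197 on GRCh37), the flavoprotein that oxidizes succinate, stood at 29.6, 37.9 and 39.5 FPKM in uninduced and at 54.7, 53.7 and 53.8 in induced cells. Its log2 fold change of 0.60 ± 0.12 (SE, limma adjusted p = 0.0192) was the highest of all called subunits. SDHB, the iron-sulfur subunit, stood at 80.5, 78.0 and 78.2 FPKM and at 93.4, 109.6 and 109 (0.39 ± 0.09, limma adjusted p = 0.0276). SDHC and SDHD are the membrane anchors that hold the ubiquinone site together with SDHB. SDHC stood at 60.6, 62.6 and 66.8 FPKM and at 77.2, 77.0 and 74.3 (0.26 ± 0.07), just inside the threshold with a limma adjusted p of 0.04999. SDHD stood at 61.3, 59.6 and 62.1 FPKM and at 67.9, 65.9 and 66.5, and was not called (0.13 ± 0.06, limma adjusted p = 0.216). The second SDHD entry had a mean of 0.548 FPKM and was not tested.

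SDHA has transcribed copies with which it can share reads. SDHAP1 stood at 15.1, 16.3 and 12.04 FPKM in uninduced and at 11.6, 13.7 and 12.8 in induced cells, so its groups overlapped. SDHAP3 was at 3.09 to 4.45 and 4.28 to 6.10 FPKM, SDHAP4 (listed under a clone name) at 6.07 to 8.40 and 8.11 to 9.30, and SDHAP2 below 1 FPKM in every library. SDHA kept its call without any uninduced library and lost it without each induced library in turn (adjusted p at most 0.0644). SDHB lost its call without any library other than induced library 1, and SDHC without any other than uninduced library 3. SDHC was called in 1 of its 13 alternatives, with limma adjusted p of 0.0379 to 0.239.

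Complex III had 1 of its 10 entries called, or 10%, near the 11.0% of all genes. In 7 the groups did not overlap, or 70.0% against 27.1% of all genes, and the median log2 fold change was 0.24. UQCRC1, a core subunit on the matrix side, stood at 172, 184 and 194 FPKM in uninduced and at 222, 253 and 233 in induced cells (0.36 ± 0.08, SE, limma adjusted p = 0.0332). UQCRH, the hinge protein near cytochrome c1 and the most abundant transcript of the complex, stood at 219, 224 and 175 FPKM and at 255, 310.4 and 249, with no overlap, and was not called (0.40 ± 0.13, limma adjusted p = 0.0868). UQCR11 stood at 70.1, 75.1 and 58.0 FPKM and at 86.3, 119 and 76.2 (0.45 ± 0.18, limma adjusted p = 0.138). Its second entry, which shares exons with it, was at 19.8, 22.9 and 15.5 and at 17.3, 13.9 and 20.3 FPKM, a log2 fold change of -0.17 with overlapping groups. The nuclear subunits that carry electrons were not called. UQCRFS1, the Rieske iron-sulfur protein, had a log2 fold change of 0.23 (limma adjusted p = 0.0933), and CYC1, the cytochrome c1, had 0.07, at 90.9, 96.2 and 87.7 FPKM against 87.4, 106 and 96.5 with overlapping groups. A copy of UQCRFS1, UQCRFS1P1, was listed at 14.7 to 22.2 FPKM over the 6 libraries. UQCRC1 lost its call without any library other than uninduced library 3.

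Complex IV also had 1 call among its 10 tested genes (10% against 11.0% of all genes), and its median log2 fold change of 0.17 was the lowest of the 5 complexes. Its nuclear subunits surround a mitochondrially encoded catalytic core, and several exist as a ubiquitous form and a form of heart, muscle, lung or testis. COX6A1, the ubiquitous form of subunit VIa, stood at 192, 187 and 184 FPKM in uninduced and at 216, 235 and 226 in induced cells (0.26 ± 0.07, SE, limma adjusted p = 0.0450), while its muscle form COX6A2 was listed at 0 in every library. COX6B1 stood at 119 ± 18.1 and 144 ± 8.63 FPKM (SD, 3 libraries each), and its testis form COX6B2 at a mean of 0.226. COX7A2 stood at 208, 201 and 156 FPKM and at 197, 228 and 202, and the muscle form COX7A1 at 6.74, 8.002 and 3.44 and at 10.3, 6.72 and 4.16, so both overlapped. COX7B stood at 48.3 ± 4.09 and 53.8 ± 3.49 FPKM, and COX7B2 at 0 in all libraries but uninduced library 3. COX8A, the most abundant transcript of the complex, stood at 325, 332 and 243 FPKM and at 287, 349 and 297.9, with a log2 fold change of 0.06, and COX8C was listed at 0 throughout. COX5A, which had the highest log2 fold change here (0.35), stood at 151, 159.8 and 124.7 FPKM and at 173, 195 and 185 without overlap, and was not called (limma adjusted p = 0.0769). COX6A1 lost its call without each library in turn, and its copy COX6A1P2 was listed at 13.7, 12.6 and 12.2 FPKM in uninduced and at 14.03, 16.9 and 15.6 in induced cells, also without overlap.

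**Figure D3:**
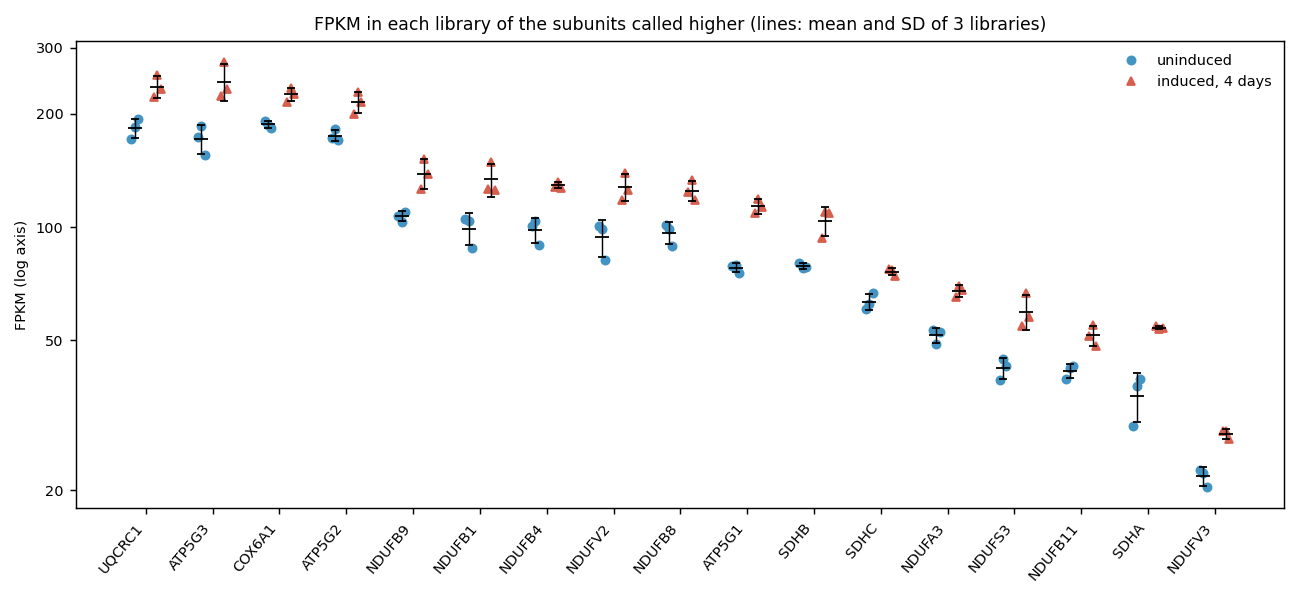
FPKM (log axis) of 17 of the 18 called subunits in each of the 3 uninduced (circles) and 3 induced (triangles) libraries, with the mean and SD of each group as lines, in order of mean FPKM. For each of the 17 all induced points lie above all uninduced points.

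The ATP synthase had 3 of its 16 tested genes called, or 18.8% against 11.0% of all genes, and they were the 3 genes for subunit c, ATP5G1, ATP5G2 and ATP5G3. These encode the same mature protein, the ring that proton flow turns, behind different import sequences. ATP5G1 (chr17:46970127-46973233 on GRCh37) stood at 78.9, 79.6 and 75.5 FPKM in uninduced and at 109, 119 and 113 in induced cells. Its log2 fold change of 0.54 ± 0.07 (SE) had the lowest limma adjusted p of all subunits, 0.00618, with 0.00533 to 0.0310 over its alternatives. ATP5G3 stood at 174, 186 and 155 FPKM and at 223, 275 and 233 (0.50 ± 0.11, limma adjusted p = 0.0280). ATP5G2 stood at 173, 182 and 171 FPKM and at 200.5, 228 and 216 (0.29 ± 0.08, limma adjusted p = 0.0476). In each of the 3 the groups did not overlap. Their sum was 426, 447 and 401 FPKM in uninduced and 532, 622 and 562 in induced cells, a ratio of 1.35 between the means. Within that sum ATP5G2 made up 41.3% ± 1.05 and 37.6% ± 0.842 (SD, 3 libraries each), ATP5G3 40.3% ± 1.46 and 42.5% ± 1.46, and ATP5G1 18.4% ± 0.525 and 19.9% ± 0.705. ATP5G2 and ATP5G3 lost their calls without each library in turn, and a pseudogene copy of ATP5G1 was listed at 4.13 to 7.76 FPKM.

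The other ATP synthase genes had no call, the catalytic head included. ATP5B, the catalytic beta subunit and the most abundant of all subunits, stood at 328, 348 and 339 FPKM in uninduced and at 348, 408 and 376 in induced cells, without overlap (0.15 ± 0.08, SE, limma adjusted p = 0.245). ATP5J2, a subunit of the membrane part, was the one tested ATP synthase gene below 0 (-0.12 ± 0.30), and 1 library set its level. It stood at 270.1, 565 and 254 FPKM and at 281, 354 and 306, with uninduced library 2 above all others, and without that library its log2 fold change was 0.25. ATP5S, a coupling factor, was the least abundant at 4.27 ± 1.10 and 5.15 ± 1.03 FPKM (SD, 3 libraries each), and ATP5L2 had a mean of 0.0589 FPKM and was not tested.

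Summed over the tested genes of a complex, FPKM was 1.18 times as high in induced as in uninduced cells for complex I, 1.26 for complex II, 1.23 for complex III, 1.13 for complex IV and 1.15 for the ATP synthase. The sums did not overlap between groups for complexes I to IV, with 2651 to 2972 against 3193 to 3664 FPKM for complex I and 232 to 247 against 293 to 306 for complex II. Complex IV separated by less than 1 FPKM, 1608.3 in uninduced library 1 against 1608.6 in induced library 1. The ATP synthase overlapped, with 2940.5 in uninduced library 2, where ATP5J2 was high, against 2806 in induced library 1. A two-sided exact permutation test over the libraries gave p = 0.1 for complexes I to IV, the smallest value that 3 against 3 allows, and p = 0.2 for the ATP synthase. Adjusted over the 5 complexes these were 0.125 and 0.2, so this test could not reach 0.05. Summed over all genes, FPKM was itself 1.05 times as high in induced cells (556538 to 576565 against 576569 to 623537), and the upper quartile of the libraries 1.08 times as high (32.9 to 34.5 against 36.3 to 36.8 FPKM). After upper-quartile scaling the ratios were 1.09 for complex I, 1.17 for complex II and 1.14 for complex III, each with an exact p of 0.1. They were 1.05 for complex IV (exact p = 0.6) and 1.06 for the ATP synthase (exact p = 0.5), with overlapping groups in both.

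Of 7 subunits that the names do not match, 6 were tested and 1 was called, or 16.7%, against 11.0% of all genes. NDUFAB1, the mitochondrial acyl carrier protein that is also a complex I subunit, stood at 87.6, 97.7 and 82.6 FPKM in uninduced and at 114, 145 and 122 in induced cells, and was the one called (0.50 ± 0.11, SE, limma adjusted p = 0.0312), a call it lost without any library other than induced library 1. COX4I1, the ubiquitous form of subunit IV, stood at 274, 281 and 257 FPKM and at 288, 338 and 296 (0.18, limma adjusted p = 0.197), and its lung form COX4I2 was listed at 0. NDUFA4L2, the hypoxia-induced relative of NDUFA4, was at 2.07 ± 0.882 and 2.29 ± 0.193 FPKM (SD, 3 libraries each). All 13 mitochondrially encoded subunits were listed at 0 in every library, as was every other gene of the mitochondrial genome, so the table gives no readout for them.

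Genes that build or serve the chain reached larger single fold changes than its subunits. Of 45 assembly factors, all tested, 10 were called higher and 0 lower, with a median log2 fold change of 0.22. These are 22.2% and 0, against 11.0% and 5.67% of all genes. COA6, which helps deliver copper to complex IV, stood at 36.98, 31.7 and 30.5 FPKM in uninduced and at 54.4, 58.5 and 59.8 in induced cells (0.78 ± 0.10, SE, limma adjusted p = 0.00508). TMEM70, which helps build the subunit c ring of the ATP synthase, stood at 20.5, 21.5 and 22.5 and at 30.7, 35.7 and 33.6 FPKM (0.61 ± 0.09, limma adjusted p = 0.00790). COA4, a complex IV assembly factor, stood at 48.6 ± 6.54 and 73.7 ± 5.05 FPKM (0.60 ± 0.12, limma adjusted p = 0.0196). COA6 and TMEM70 were called in all 13 alternatives, and without single libraries the list held 4 to 6 calls, with 4, or 8.89%, when uninduced library 2 or induced library 3 was left out, where 4.51% and 4.39% of all genes were called higher.

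Among 14 partners of the chain, which feed it electrons, carry them or exchange its products, 2 were called higher and 1 lower, or 14.3% and 7.14%, near the 11.0% and 5.67% of all genes. ETFB, the beta subunit of the electron transfer flavoprotein of fatty acid oxidation, stood at 27.2 ± 1.405 and 37.3 ± 2.01 FPKM (SD, 3 libraries each), a log2 fold change of 0.44 (limma adjusted p = 0.0164). SLC25A5, an ADP/ATP exchanger of the inner membrane, stood at 179, 181 and 179 FPKM in uninduced and at 223, 264 and 247 in induced cells (0.44, limma adjusted p = 0.0172). UCP2, an inner-membrane carrier of the uncoupling protein family, stood at 11.3, 6.50 and 8.13 FPKM and at 3.73, 2.24 and 3.15 (-1.24 ± 0.22, limma adjusted p = 0.0153), and was called lower in all 13 alternatives. Without uninduced library 1, uninduced library 2 or induced library 3 only 1 of these 3 calls was left.

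Of 18 regulators of mitochondrial biogenesis 16 were tested, 3 were called higher and 0 lower, or 18.8% and 0 against 11.0% and 5.67% of all genes, with a median log2 fold change of 0.11, near the 0.10 of all genes. The 3 were parts of the mitochondrial transcription and ribosome-building machinery. TFB1M, which methylates the small mitochondrial ribosomal RNA, stood at 21.9, 24.97 and 25.5 FPKM in uninduced and at 40.3, 50.9 and 43.3 in induced cells (0.86 ± 0.11, SE, limma adjusted p = 0.00602). POLRMT, the mitochondrial RNA polymerase, stood at 15.4 ± 2.37 and 22.2 ± 2.08 FPKM (0.51, limma adjusted p = 0.0434), and its initiation factor TFB2M at 13.3 ± 0.586 and 19.1 ± 1.45 (0.48, limma adjusted p = 0.0163). TFAM, which packages mitochondrial DNA, stood at 30.0, 29.5 and 33.8 FPKM and at 35.8, 35.6 and 39.9 and was not called (0.25, limma adjusted p = 0.108). NRF1 stood at 6.88 ± 0.721 and 6.79 ± 0.298 FPKM and GABPA at 14.1 ± 0.497 and 15.2 ± 2.87 (-0.01 and 0.09), so for neither did the groups separate. GABPB1, the other GABP gene listed, stood lower in induced cells without overlap, at 22.7 ± 2.19 and 18.4 ± 1.10 FPKM. It was not called (-0.29, limma adjusted p = 0.0942), but was called in 2 of its 13 alternatives. The coactivator PPARGC1A had a mean of 0.0837 FPKM and its relative PPARGC1B of 0.0322, below the limit for testing. Without uninduced library 1, uninduced library 2 or induced library 3 only TFB1M kept its call.

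The TCA cycle and pyruvate dehydrogenase list, whose enzymes supply the chain with NADH and succinate, had 24 of its 25 genes tested. Of these 3 were called higher and 2 lower, or 12.5% and 8.33%, near the 11.0% and 5.67% of all genes, with a median log2 fold change of 0.14. IDH2, the NADP-dependent mitochondrial isocitrate dehydrogenase, stood at 44.7, 55.2 and 55.9 FPKM in uninduced and at 27.7, 32.6 and 25.4 in induced cells (-0.84 ± 0.13, SE, limma adjusted p = 0.00987), while IDH3A, the alpha subunit of the NAD-dependent enzyme of the cycle, stood at 41.4 ± 2.95 and 55.9 ± 2.83 FPKM (0.43, limma adjusted p = 0.0205). The kinases that switch pyruvate dehydrogenase off differed among themselves. PDK1 stood at 20.3, 23.2 and 29.4 FPKM and at 47.7, 34.0 and 40.1 (0.72, limma adjusted p = 0.0347), PDK3 at 1.30 ± 0.251 and 3.12 ± 0.186 FPKM (0.85, limma adjusted p = 0.0159), PDK2 at 8.31 ± 0.383 and 6.17 ± 0.0845 (-0.38, limma adjusted p = 0.0351), and PDK4 was listed at 0. Without uninduced library 2, induced library 1 or induced library 3 there was 1 call in this list, and without uninduced library 1 there were 2.

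**Figure D4:**
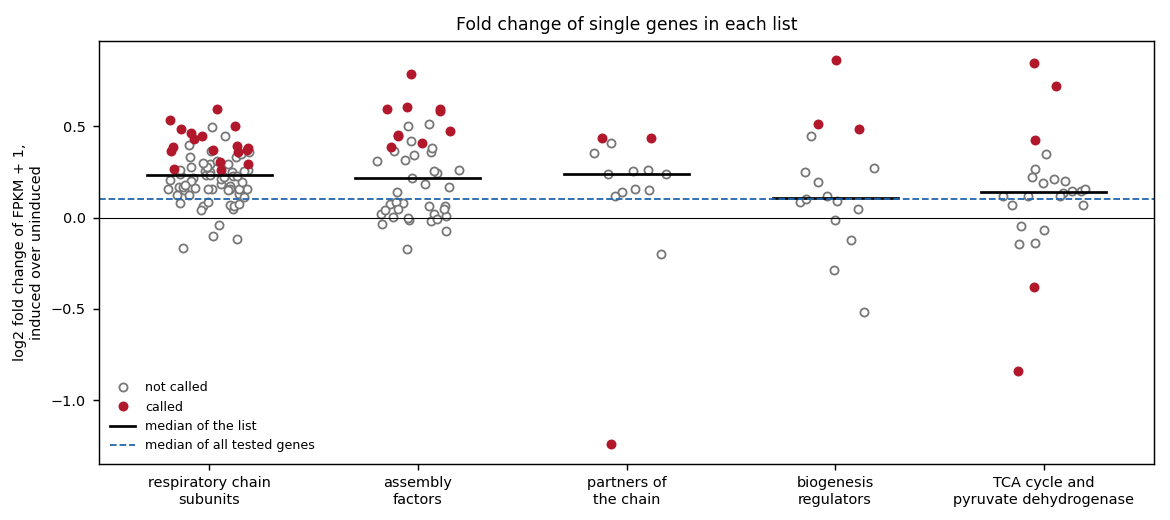
Log2 fold change (induced over uninduced, FPKM + 1) of each tested gene in the respiratory chain and in 4 related lists; filled red points are called, open points are not, the black bar is the median of the list and the dashed line the median of all tested genes (0.10). The respiratory chain points lie within a narrower range than those of the other lists, with UCP2 (-1.24) the lowest point shown and TFB1M (0.86) the highest.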

How the data were processed

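RNA-seq was done on poly(A) RNA of mitotic ERRAS cells on a NextSeq500. According to the processing notes and methods, the authors trimmed reads with Trim Galore 0.3.0, aligned them to hg19 with TopHat2 and Ensembl build 73 junctions, and calculated the deposited FPKM values with Cufflinks, 1 column per library. The deposited cuffdiff table (FPKM per group, fold change, test statistic, p-value and q-value) was not used. In the FPKM table a second header line was dropped, 120 entries with more than 6 values were left out, and 18 unnamed columns were not used. No counts were used here, so depth is given only relative to uninduced library 1 (0.848 to 1.17), from the steps between low FPKM values.

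Genes whose mean reached 1 FPKM (13993) entered the test, made on log2(FPKM + 1), which understates changes of low genes, with limma 3.58.1 in R 4.3.3 (lmFit, eBayes with trend), two-sided, with Benjamini-Hochberg adjustment; the script was tested on simulated data. Exact permutation tests went through every split of the libraries with numpy 2.4.6 in Python 3.11.15. Tables were made with pandas 2.3.3, and figures were drawn with matplotlib 3.10.9. Biotypes, coordinates and shared exons are from GENCODE 44 lifted to GRCh37 (55021 of 63009 entries matched). The members and gene lists were chosen with earlier results of these data known. Named were the called subunits; in each complex the most and least abundant and the highest and lowest fold change; all subunits under 1 FPKM; tissue forms of a subunit; from other lists up to 3 called genes each way; and PPARGC1A, NRF1, GABPA, TFAM and HRAS. One called subunit counts in all totals but is not reported by name here. The genes NDUFA5, NDUFV1, UQCRFS1, CYC1, GABPB1, PPARGC1B and PDK4, the marker genes and the genes sharing reads were named after their values were seen. Alternatives were pseudocount 0.1, no filter, a mean of at least 5 FPKM, quantile normalization, upper-quartile scaling, eBayes without trend, a replicate block and leaving out each library.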

Additional observations from a re-analysis of the deposited data

How the results depend on the processing

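The absolute depth cannot be read from the table used here, and 3 libraries a group limit the precision. Over the 13 alternatives the subunits called higher numbered 16 with pseudocount 0.1 (20.3%, against 11.5% of all genes), 6 of 83 without a filter (7.23% against 3.27%), 17 of 76 at a mean of at least 5 FPKM (22.4% against 14.4%), 14 with quantile normalization (17.7% against 7.46%), 4 with upper-quartile scaling (5.06% against 6.58%), 8 without a trend (10.1% against 9.29%) and 1 to 9 with a library left out (1.27% to 11.4% against 4.39% to 8.65%). Without a filter, p-values were adjusted over 29362 genes. The cause of these differences was not tested. None was called lower in any. The median fold change lay between 0.14 and 0.27, and its excess over the median of all genes between 0.06 and 0.21. Without a filter and with upper-quartile scaling, assembly factors had 6 calls in both cases, or 13.3%, and the subunits outside the name patterns 0 in both. Of all genes 3.27% and 6.58% were called higher in these settings, with 558 and 1101 genes called lower. The TCA cycle and pyruvate dehydrogenase list had 3 calls without a filter, at a mean of at least 5 FPKM and with the replicate block. In these settings 3.27%, 14.4% and 10.5% of all genes were called higher. With a library left out, calls ranged from 4 to 6 for assembly factors, 0 to 1 for the subunits outside the name patterns, 1 to 3 for partners of the chain, 1 to 3 for biogenesis regulators and 1 to 4 for the TCA cycle list. In these fits 4.39% to 8.65% of all genes were called higher. The counts for these lists hold calls in both directions. Of 723 alternative values of the 56 named genes, 0 called genes changed direction, 196 lost the call and 2 gained it.

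The column numbers were also used as a replicate block. Deviations from the group means correlated at -0.0027, 0.0433 and 0.0481 between libraries of the same number and at a mean of -0.0148 between different numbers, so the numbers were not taken to pair the libraries. With the block, 16 subunits were called higher (20.3%, against 10.5% of all genes), 13 of them among the 18, and the median of the subunits stayed at 0.23.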
